A study of Mus musculus with 2 samples.

Results

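The genes described here are Apoe, Cd9, Ank, Trem2, Ctsb, Lpl, Spp1, Itgax, Axl and Clec7a, 10 genes that mark disease-associated microglia. They were chosen by their high counts in microglia of the injury library of these same data, so their values in that contrast are a description and carry no test. Of the 10, 9 had a row among the 32285 genes of the count tables. Clec7a, the receptor dectin-1, had no row and was not analysed here.

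Nuclei came from tissue dissected as thalamus of female C57BL/6J mice, 3 months old, on day 21 after cortical ablation injury or a sham operation. Whether the dissections of the 2 groups held the same tissue was not tested. Nuclei of 4 mice were pooled, stained and sorted for each of the 2 groups, and each pool became 1 droplet-based single-nucleus RNA library. Each group therefore had 1 library, no difference had a replicate check, and no p-value is given. The libraries shared 101 cell barcodes, 0.616% of the sham and 0.463% of the injury barcodes. The sham library held 16373 nuclei after filtering (median of 7190 unique molecular identifiers, UMIs) and the injury library 21777 nuclei (median of 6810 UMIs). All intervals are at 95%, are exact Poisson intervals for sums and exact binomial (Clopper-Pearson) intervals for shares and ratios, and cover counting error only.

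Microglia are the resident macrophages of the brain. In degenerating or demyelinating tissue they can leave the surveying state and turn on a program for taking up and digesting lipid-rich debris, in which Apoe, Lpl, Cd9, Spp1 and Itgax are raised while genes of the surveying state fall. TREM2, a surface receptor that binds lipids and signals through the adaptor TYROBP, is needed in mouse models for the full form of this program. The thalamus is connected with the cortex in both directions, and the study asked how its microglia differ after damage to the distant cortex.

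The nuclei in which these genes were to be read were set by a count rule, at least 3 UMIs summed over Cx3cr1, Csf1r, P2ry12 and Inpp5d, 4 genes that mark microglia. The rule took 1174 sham nuclei (7.17% of the library, interval 6.78 to 7.58) and 1914 injury nuclei (8.79%, 8.42 to 9.17). Just inside it, with exactly 3 UMIs, were 718 sham and 1019 injury nuclei, and just outside, with exactly 2 UMIs, 1875 and 2345. When the nuclei were clustered, 966 of the sham rule nuclei (82.3%) and 1298 of the injury rule nuclei (67.8%) fell into clusters of glutamatergic neurons. The clustering left out the members and the listed pathway genes described below, but did not leave out the rule genes. Only 24 sham (2.04%) and 116 injury (6.06%) rule nuclei fell into the 1 cluster with microglial markers, whose leading genes were Inpp5d, Ly86, Apbb1ip, Runx1 and Fyb. By cluster, most nuclei taken by the rule were therefore not called microglia. Clusters kept out of the classes for few nuclei in 1 library held 4 sham and 945 injury nuclei. These clusters carried neuron markers, with 4 sham against 445 injury nuclei, 0 against 281 and 0 against 219. Whether they came from tissue that only the injury dissection held was not tested, nor whether other classes included nuclei from such tissue.

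**Figure D1:**
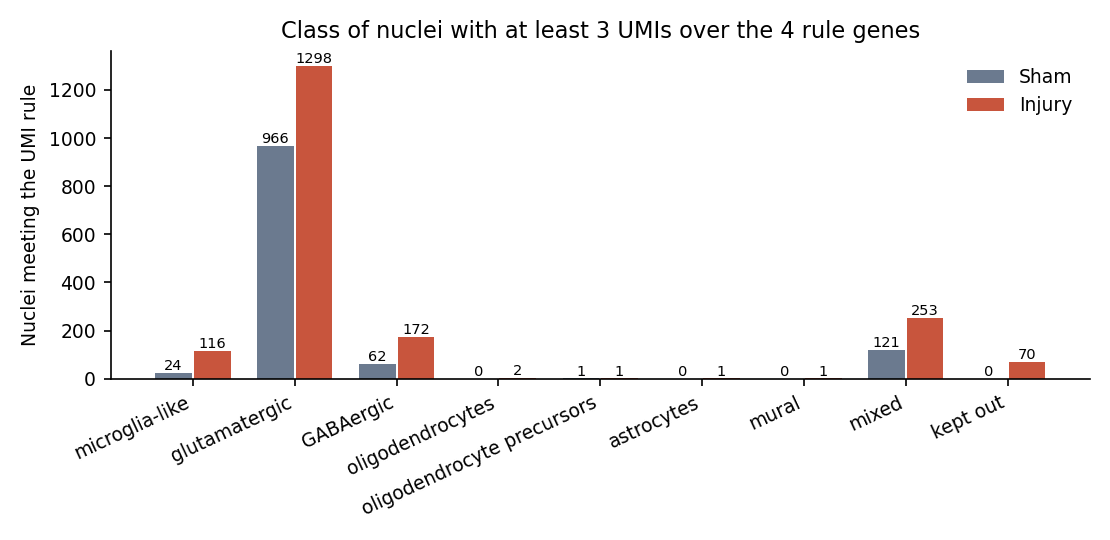
Number of nuclei with at least 3 UMIs over Cx3cr1, Csf1r, P2ry12 and Inpp5d in each class (x axis) of the sham and the injury library, with the number above each bar. Mixed clusters were mostly called doublets, and kept-out clusters had fewer than 50 nuclei in 1 library. The bars of glutamatergic neurons, at 966 and 1298 nuclei, stand far above those of the microglia-like cluster, at 24 and 116.

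P2ry12, a purinergic receptor gene, gave most of the rule UMIs in neurons. Outside the microglia-like cluster it gave 3756 UMIs of sham rule nuclei and was seen in 1143 of 1150 of them, and in the injury library it gave 6000 UMIs and was seen in 1776 of 1798. Csf1r, the receptor for colony stimulating factor 1, was seen in 25 of the 1150 and 60 of the 1798 nuclei. Inpp5d, a lipid phosphatase of blood and microglial cells, was seen in 20 and 57 of them. P2ry12 lies on chromosome 3 (59216272 to 59262871, GRCm38, minus strand) inside Med12l, a gene read from the other strand whose per-million count (CPM, over the UMIs of a class) in glutamatergic neurons was 296 for sham and 308 for injury. The sources used here do not state whether counting used the strand, and without it the reads of these overlapping genes cannot be told apart. Rule nuclei were also large, with medians of 12324 sham and 11972.5 injury UMIs.

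For this reason the values below are given for all rule nuclei where the rule asks for it, and in detail for the 24 sham and 116 injury rule nuclei of the microglia-like cluster, called microglia from here on. They were 0.147% (0.0939 to 0.218) of sham and 0.533% (0.440 to 0.639) of injury nuclei. Their medians were 1216 sham and 1256 injury UMIs, and they held 29730 and 164324 UMIs in all. The 4 rule genes had 6189 and 4935 CPM in sham and injury microglia, and all 12 further microglial markers had UMIs in both. Both lists were also used to name the cluster, so these values are no separate check. Markers of monocytes, neutrophils and T cells were at 0 UMIs in both libraries. Border macrophage markers had 17 UMIs, all in 1 nucleus, in sham microglia and 1 UMI in injury microglia, with Cd163, Pf4, Lyve1 and Ms4a7 at 0 in both.

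Which nuclei counted as microglia touched some values. Of the microglia, 13 of the 24 sham and 6 of the 116 injury nuclei were called doublets, and without them 11 sham nuclei with 11602 UMIs and 110 injury nuclei with 147265 UMIs were left. The largest microglia held 2058 sham and 4246 injury UMIs, where the medians of all nuclei were 7190 and 6810. Whether the called doublets were mixtures of nuclei was not tested. The 6 neuron markers summed to 1110 CPM in sham and 1674 CPM in injury microglia, and to 948 and 1460 CPM without called doublets. The 6 oligodendrocyte markers summed to 303 CPM in sham and 943 CPM in injury microglia, and to 345 and 360 CPM without called doublets, and their part in the values of Ank and Cd9 was not tested beyond the values given without called doublets. Nuclei rich in neuron RNA could also fall outside the cluster. A set made after the data were seen, with at least 3 UMIs over Csf1r and Inpp5d in any cluster, held 27 sham and 124 injury nuclei, of which 19 and 86 were microglia as above, and its neuron markers stood at 8670 and 9460 CPM. For the members, values in these sets follow the main ones.

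The regions before the starts of 4 members are shown, Trem2 because it set microglia apart from other classes in both libraries, and Spp1, Itgax and Axl because they had no UMI in sham microglia. Each line holds the 250 bases before the RefSeq start site on GRCm38.p6, read 5′ to 3′ on the strand of the gene. Trem2 is at chr17:48346151-48346400 (plus strand), Spp1 at chr5:104434861-104435110 (plus), Itgax at chr7:128129300-128129549 (plus) and Axl at chr7:25788734-25788983 (minus). Capitals mark matches, on either strand, to GAGGAAG, the core bound by the myeloid factor PU.1, or to TGANTCA, the AP-1 site. These motifs do not overlap each other in the windows shown.
Trem2: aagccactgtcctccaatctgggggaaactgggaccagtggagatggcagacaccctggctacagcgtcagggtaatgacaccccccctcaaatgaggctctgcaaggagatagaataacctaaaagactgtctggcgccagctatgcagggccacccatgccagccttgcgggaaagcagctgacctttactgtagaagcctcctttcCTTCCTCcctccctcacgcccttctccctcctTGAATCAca
Spp1: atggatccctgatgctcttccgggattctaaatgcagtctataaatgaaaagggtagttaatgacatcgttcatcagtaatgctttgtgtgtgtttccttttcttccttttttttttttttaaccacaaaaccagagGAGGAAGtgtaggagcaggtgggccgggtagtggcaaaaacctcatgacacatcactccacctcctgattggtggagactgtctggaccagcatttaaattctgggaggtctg
Itgax: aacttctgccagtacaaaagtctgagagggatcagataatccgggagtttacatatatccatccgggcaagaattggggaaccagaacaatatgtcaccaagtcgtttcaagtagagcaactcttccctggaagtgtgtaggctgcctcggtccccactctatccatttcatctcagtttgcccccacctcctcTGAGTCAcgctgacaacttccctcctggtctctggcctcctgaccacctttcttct
Axl: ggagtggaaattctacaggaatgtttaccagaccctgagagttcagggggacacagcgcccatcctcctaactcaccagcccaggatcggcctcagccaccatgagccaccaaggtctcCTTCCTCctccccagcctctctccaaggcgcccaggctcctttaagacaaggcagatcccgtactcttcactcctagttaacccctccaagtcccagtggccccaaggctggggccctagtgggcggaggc

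The PU.1 core was present 35 to 41 bases before the start of Trem2, 107 to 113 bases before that of Spp1 and 125 to 131 bases before that of Axl. It was in 3 of the 8 members with a window in the table, against 10.6% of all 32851 windows. The AP-1 site was 3 to 9 bases before the start of Trem2 and 50 to 56 bases before that of Itgax, so in 2 of 8 members against 6.75% of all windows. CACGTG, the E-box bound by regulators of lysosomal genes, was in 0 of 8 windows and in 6.02% of all windows. The windows of Apoe, Cd9, Ank and Clec7a held none of the 3 motifs, and Ctsb and Lpl were without a window. A match describes letters and is not evidence of binding.

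To ask how the members stood in injured tissue, UMIs were first summed over microglia of each library. Summed over the 9 members there were 17 UMIs in sham and 439 in injury microglia, or 572 and 2672 CPM. Without called doublets the sums were 11 and 398 UMIs, or 948 and 2703 CPM. By size, 3 members were at least 2-fold higher in the injury library (Apoe, Cd9 and Ank), Trem2 was just under 2-fold, 4 had no UMI in sham microglia (Lpl, Spp1, Itgax and Axl), and Ctsb was level. Of all 2260 genes with at least 20 UMIs over both libraries in microglia, 310 (13.7%) were at least 2-fold higher in the injury library, and the median log2 ratio of all of them was 0.04. Because this contrast chose the members, their count is set beside that share without being read against it.

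**Figure D2:**
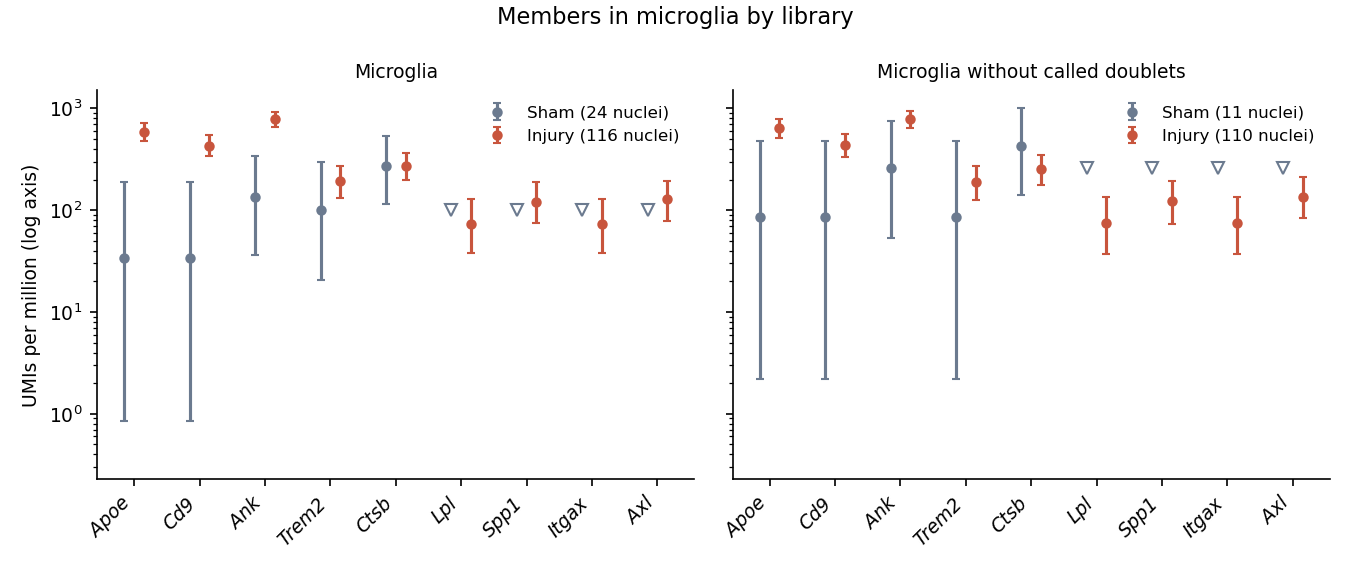
CPM (log axis) of each member in sham and injury microglia, for all microglia at left and without called doublets at right. Points are CPM with exact 95% Poisson intervals, and open triangles mark members with no UMI, drawn at the CPM of 3 UMIs. At left the intervals of the 2 libraries do not overlap for Apoe, Cd9 and Ank and do overlap for Trem2 and Ctsb, and at right the sham intervals are wider.

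Among the surface proteins, Cd9 encodes a tetraspanin that organizes other membrane proteins (chromosome 6, 125460266 to 125494791). It had 1 UMI among 24 sham microglia, 33.6 CPM (0.852 to 187). In injury microglia it had 71 UMIs in 36 of 116 nuclei, 432 CPM (337 to 545.0). The log2 ratio was 3.68 (1.16 to 9.01), so Cd9 was higher in the injury library, by an amount that rests on 1 sham UMI. Without called doublets the ratio was 2.33, with an interval that includes 0 (-0.20 to 7.66), and in the set by Csf1r and Inpp5d it was 4.23 (1.72 to 9.55). Its injury UMIs were spread over many nuclei, since the highest held 8 UMIs and the 5 highest together 31.0% of the gene's UMIs.

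Trem2 (chromosome 17, 48346401 to 48354147) was seen in 3 sham nuclei with 1 UMI each, 101 CPM (20.8 to 295), and in 23 injury nuclei with 32 UMIs, 195 CPM (133 to 275). Its log2 ratio of 0.95 had an interval of -0.73 to 3.30, which includes no difference. In the set by Csf1r and Inpp5d the ratio was 1.61 (-0.03 to 3.95), and without called doublets 1.14, with an interval that includes 0. The 3 sham UMIs allow no firmer statement on Trem2.

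Axl and Itgax encode a TAM receptor tyrosine kinase for dying cells and the integrin chain CD11c. Axl (chromosome 7, 25757273 to 25788705) was at 0 in sham microglia and had 21 UMIs in 18 injury nuclei, 128 CPM (79.1 to 195). Itgax (chromosome 7, 128129547 to 128150657) had 0 UMIs in sham and 12 UMIs in 9 injury nuclei, 73.0 CPM (37.7 to 128). A count of 0 in sham microglia leaves room for 101 CPM at 3 UMIs, near the injury level of Axl and above that of Itgax, so no fold is given for either.

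Of the secreted proteins and enzymes of lipid transport, Apoe encodes apolipoprotein E, the main lipid carrier of the brain (chromosome 7, 19696109 to 19699188). It had 1 UMI among sham microglia, 33.6 CPM (0.852 to 187), and 97 UMIs in 36 injury nuclei, 590.3 CPM (479 to 720.1), with 49.5% of the injury UMIs in the 5 highest nuclei. The log2 ratio was 4.13 (1.62 to 9.45), and 2.89 (0.38 to 8.21) without called doublets. In the set by Csf1r and Inpp5d, with 7 sham and 118 injury UMIs, the ratio was 1.88 (0.79 to 3.23). Apoe was thus higher in the injury library in each set, and the size of its ratio depended on which nuclei were taken.

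Lpl, lipoprotein lipase, which frees fatty acids from triglycerides (chromosome 8, 68880491 to 68907448), had 0 sham UMIs and 12 UMIs in 8 injury nuclei, 73.0 CPM (37.7 to 128), under the sham limit of 101 CPM. Spp1, the secreted phosphoprotein osteopontin (chromosome 5, 104435118 to 104441050), had 0 sham UMIs and 20 UMIs in 10 injury nuclei, 122 CPM (74.3 to 188). Both were carried by few nuclei, since the 5 highest injury nuclei held 75.0% of the UMIs of each gene. For the 4 members at 0 in sham microglia, the exact interval of the log2 ratio began at -0.16 for Spp1, -0.09 for Axl and -0.99 for Lpl and Itgax, so each includes no difference. Without called doublets these intervals reached further down, beginning at -1.36 for Axl, -1.53 for Spp1 and -2.34 for Lpl and Itgax. In the set by Csf1r and Inpp5d, also with 0 sham UMIs of all 4, they began at 0.52 for Spp1, 0.40 for Axl and Lpl and -0.25 for Itgax, so there the first 3 lay above 0. In that set 12 of 27 sham and 33 of 124 injury nuclei were called doublets. The intervals treat UMIs as independent and do not cover their gathering in few nuclei.

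Ank encodes a membrane protein that exports pyrophosphate and its precursor (chromosome 15, 27466677 to 27594909). Its 4 sham UMIs lay in 3 nuclei, 135 CPM (36.7 to 344), and its 129 injury UMIs in 46, 785 CPM (655 to 933). The log2 ratio was 2.54 (1.15 to 4.44), and in the set by Csf1r and Inpp5d, with 11 and 224 UMIs, it was 2.15 (1.29 to 3.18). Ank was the member with the most UMIs in injury microglia and was higher there in each set, at 1.60 (0.01 to 3.89) without called doublets. Of its 3610 exonic bases 3187 lie inside Otulin on the other strand, so reads there cannot be told apart without strand. For Ctsb 774 of 6051 exonic bases lie inside Fdft1, and for Cd9 218 of 2044 inside Gm26728, also on the other strand.

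Ctsb, the lysosomal protease cathepsin B (chromosome 14, 63122462 to 63145923), had nearly the same level in both libraries. It was seen in 6 sham nuclei with 8 UMIs, 269 CPM (116 to 530.2), and in 29 injury nuclei with 45 UMIs, 274 CPM (199.7 to 366). The log2 ratio was 0.03 (-1.07 to 1.32), an interval that reaches past 2-fold in both directions, and it was 0.22 (-0.68 to 1.25) in the set by Csf1r and Inpp5d and -0.78 (-2.13 to 0.93) without called doublets.

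Over all rule nuclei the same sums gave other values, with 4 of the 8 members that had at least 20 UMIs 2-fold or more higher in the injury library (Cd9, Trem2, Spp1 and Axl), against 774 of 17864 genes (4.33%). In sham and injury rule nuclei Cd9 had 19 and 140 UMIs, Trem2 6 and 51, Spp1 7 and 57, Axl 1 and 41 and Itgax, under the limit of 20, 0 and 17. Ank, at 110 and 128 CPM over all rule nuclei, had a log2 ratio of 0.22 (0.13 to 0.30), where in microglia it was 2.54, and Apoe was at 0.99 (0.79 to 1.20). The share of rule nuclei in the microglia-like cluster was 2.04% for sham and 6.06% for injury, and in the sums over all rule nuclei more microglia and more RNA of a gene per microglial nucleus cannot be told apart. Rule nuclei outside the cluster also held part of these UMIs, with 18 sham and 69 injury UMIs of Cd9 (1.13 and 2.71 CPM), 3 and 19 of Trem2 (0.189 and 0.747 CPM), 7 and 37 of Spp1 (0.441 and 1.45 CPM) and 1 and 20 of Axl (0.0630 and 0.786 CPM).

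Without called doublets 4 members were at least 2-fold higher in the injury library (Apoe, Cd9, Ank and Trem2), against 232 of 1810 genes (12.8%). Values without called doublets depend on the scaling, since TMM factors add 0.81 and median-ratio factors 0.83 to every log2 ratio of that set, which would bring Ctsb from -0.78 to near 0 and the interval of Cd9 above 0. The TMM shift was 0.38 for all microglia and -0.02 to 0.08 in the 5 other classes described below, so it was largest where sham UMIs were fewest. Whether few sham UMIs set this shift was not tested, and shifted values are given only as another scaling. Leaving out the 1 injury nucleus with 20 or more neuron marker UMIs gave 3 members, against 312 of 2209 genes (14.1%).

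To see where else the members are expressed, microglia were set against 5 other classes of the same library, leaving rule nuclei out of those classes. In the injury library all 9 members had their highest CPM in microglia, against 1256 of 1912 genes (65.7%) with at least 20 UMIs in injury microglia, a limit that 7 of the 9 met (all but Lpl and Itgax). In the sham library this held for 2 members, Trem2 and Ctsb, where the share among genes with at least 20 UMIs was 166 of 196 (84.7%), a limit that no member met in sham microglia. Most well counted genes of these microglia thus passed the same comparison. Apoe was the member nearest to another class in the injury library, at 590.3 CPM in microglia and 484 CPM in astrocytes, a log2 difference of 0.29 with an interval that includes 0 (-0.03 to 0.59).

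**Figure D3:**
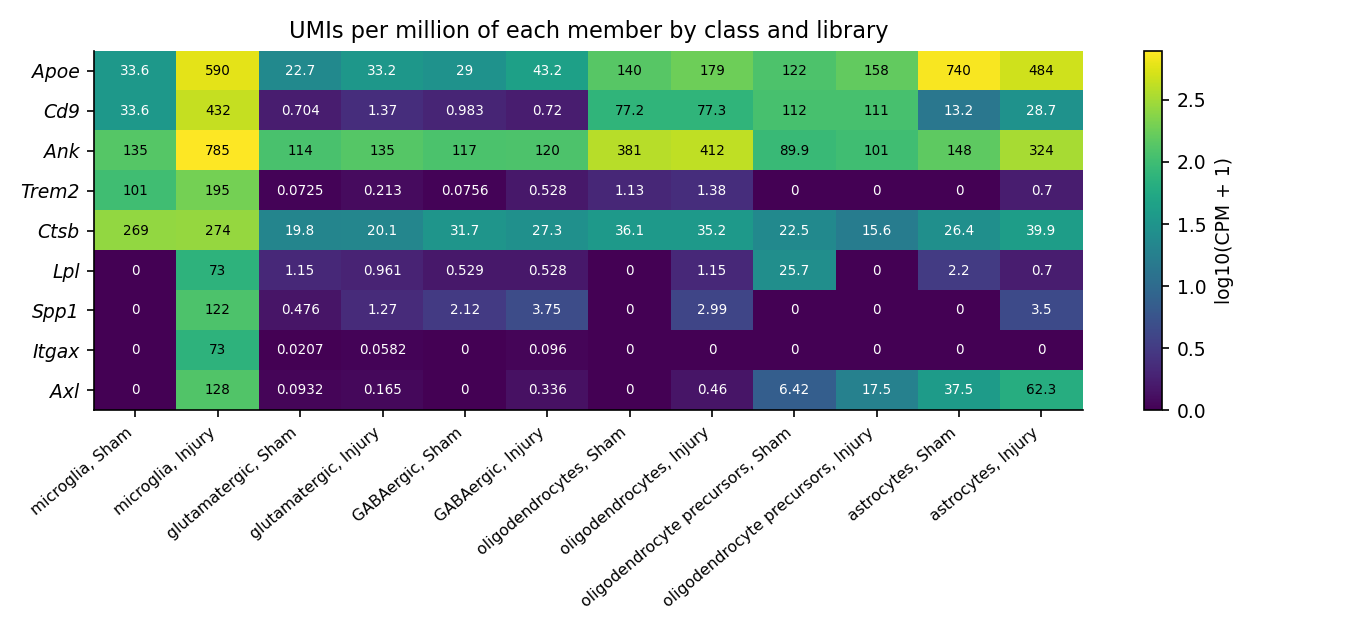
CPM of each member (rows) in 6 classes of each library (columns), printed in the cells, with color on a log10(CPM + 1) scale. Trem2 and Itgax are near 0 outside microglia in both libraries, Apoe is high in astrocytes of both, and Ank, Apoe and Ctsb are present in all classes.

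The members differed in how closely they kept to microglia. Itgax had 73.0 CPM in injury microglia and at most 0.096 CPM in any other class. Trem2 had 195 CPM, against 1.38 CPM in oligodendrocytes, the next class, a log2 difference of 7.14 (5.86 to 8.69). In the sham library Trem2 was at 101 against 1.13 CPM, so it stood far above the other classes in both libraries. Lpl, at 73.0 against 1.15 CPM in oligodendrocytes, and Spp1, at 122 against 3.75 CPM in GABAergic neurons, did so in the injury library. Ctsb did so in both, at 274 against 39.9 CPM in injury astrocytes and 269 against 36.1 CPM in sham oligodendrocytes.

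A second group was shared with other glia. Cd9 had 432 CPM in injury microglia and 111 CPM in oligodendrocyte precursors, a log2 difference of 1.96 (1.44 to 2.49). In the sham library Cd9 was at 112 CPM in precursors and 33.6 CPM in microglia, a difference within counting error (-1.74, -7.08 to 0.83). Ank had 785 CPM in injury microglia and 412 CPM in oligodendrocytes (0.93, 0.66 to 1.19), and in the sham library oligodendrocytes were higher, at 381 against 135 CPM. Axl had 128 CPM in injury microglia and 62.3 CPM in astrocytes (1.04, 0.28 to 1.73). Apoe was far higher in sham astrocytes than in sham microglia, at 740.4 against 33.6 CPM (-4.46, -9.77 to -1.97).

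Most of the UMIs of every member lay outside the nuclei called microglia in both libraries, for Itgax on only 2 UMIs in the whole sham library. In the injury library these nuclei held 45.3% of the UMIs of Csf1r and 59.8% of those of Inpp5d, 2 of the rule genes. A UMI outside them is therefore not by itself expression in another cell type. Injury microglia held 34.3% of the Itgax UMIs of their library (19.1 to 52.2), 30.8% of Trem2 (22.1 to 40.6) and 11.2% of Axl (7.09 to 16.7). They held 8.27% of Cd9, 5.83% of Spp1 and 5.43% of Lpl, but only 1.26% of Apoe, 1.12% of Ctsb and 0.509% of Ank. A sum of Ank, Apoe or Ctsb over the whole library therefore reads other cells nearly alone.

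Shares of nuclei with a UMI were set beside those in glutamatergic neurons of the same library. The neuron markers of sham and injury microglia stood at 0.086 and 0.13 of their level outside microglia. Subtracting all genes in those proportions, as an estimate of free RNA, left log2 ratios of 4.23 for Apoe, 3.79 for Cd9 and 2.62 for Ank in microglia, and all 9 members still had their highest CPM there. For the ratios the counts left were rounded to whole UMIs. Sham microglia held 1, 1 and 4 UMIs of these genes, which the step could hardly change. The part of free RNA in the 3 ratios was therefore not tested by it. After thinning to 1000 UMIs per nucleus, 79 of the 116 injury microglia were deep enough and 26.6% of them had a Cd9 UMI, against 31.0% before thinning. Of 11488 thinned injury glutamatergic nuclei 0.131% had a Cd9 UMI, where the median depth before thinning was 7651 UMIs. For Trem2 the thinned shares were 15.2% and 0.0174%, for Axl 17.7% and 0.0174%, and for Spp1 7.59% and 0.0783%. Apoe had 27.8% in microglia against 4.03%, Ctsb 19.0% against 2.05%, and Ank 29.1% against 12.7%. Against other glia of the injury library, the thinned share of Apoe was higher in astrocytes, at 36.9%, than in microglia. That of Ank was higher in oligodendrocytes, at 32.2%, and Cd9 was at 11.7% in oligodendrocyte precursors. Lpl and Itgax, each in 3 of the 79 nuclei, stood on too few nuclei for a share. In 18 thinned sham microglia Trem2 was in 2, Ank in 2 and Ctsb in 4, and the other 6 members were in 0 of 18, which allows a share of up to 16.7% at 3 nuclei (exact upper limit 18.5%).

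Injury nuclei were next examined for members seen together. In the 116 injury microglia, 77 had at least 1 member and 32 had at least 3. In sham microglia 11 of 24 had at least 1, and 0 of 24 had 3, which allows a share of up to 12.5% at 3 nuclei (exact upper limit 14.2%). Thinned to 1000 UMIs, 18 of 79 injury nuclei had at least 3 members and 0 of 18 sham nuclei did, with the same limits as above for 0 of 18.

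**Figure D4:**
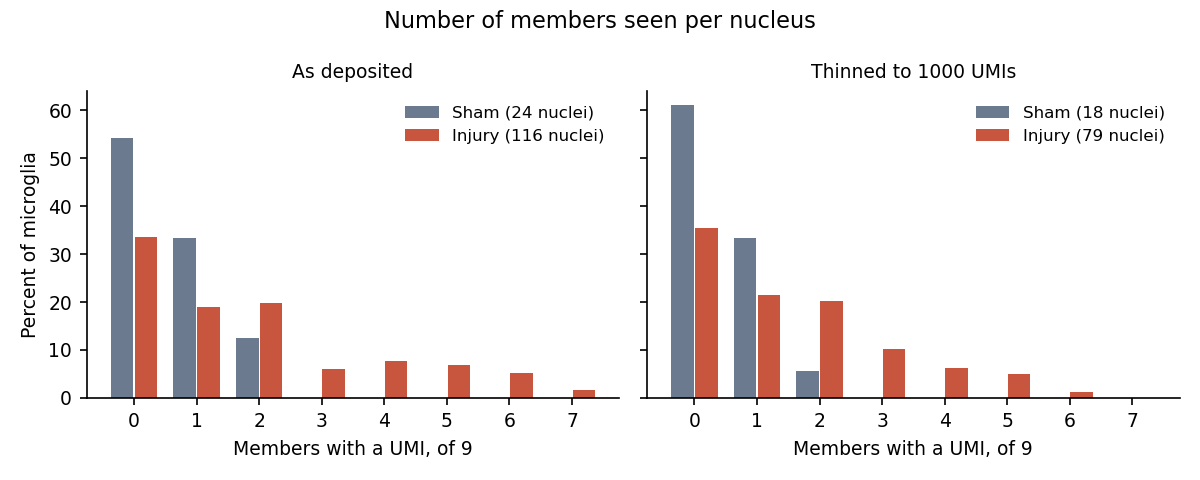
Percent of sham and injury microglia (y axis) by the number of the 9 members with a UMI (x axis), as deposited at left and thinned to 1000 UMIs at right. Injury nuclei reach 7 members as deposited and 6 after thinning, and sham nuclei reach 2 in both panels.

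Of the 36 pairs of members, all were seen in the same injury microglia more often than the product of their shares. Summed over pairs, 310 nuclei had both against 170.6 by the product, a ratio of 1.82. Pairs of other genes were not counted in these nuclei, so the counts have no reference. They are not read as a property of the members. Ank was seen in 69.4% of the 36 nuclei with Cd9 (51.9 to 83.7) and in 26.3% of the nuclei without (17.04 to 37.3). It was likewise in 63.9% of the nuclei with Apoe and in 28.8% of those without. All 10 nuclei with Spp1 also had Ank, where the product of the shares was 3.97, and 8 of them had Cd9, where it was 3.10. Lpl was seen with Trem2 in 6 nuclei against 1.59 by the product and with Itgax in 4 against 0.621. Cd9 with Itgax, at 3 nuclei against 2.79, and Apoe with Cd9, at 13 against 11.2, lay nearest to the product.

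Depth moved with these counts. Nuclei with both Cd9 and Ank had a median of 1833 UMIs, and the other injury microglia 1153. Thinned to 1000 UMIs the summed ratio was 1.63, with 125 nuclei against 76.5, and 30 of the 36 pairs were above the product. Without called doublets it was 1.83, with 35 pairs above. Over all 1914 injury rule nuclei, mostly neurons, the ratio was 1.21 as deposited and 4.89 after thinning. This set mixes classes, and 79 of its 1877 thinned nuclei were microglia. They were 21 of the 26 thinned nuclei with Cd9, 12 of 16 with Trem2 and 14 of 16 with Axl. With Apoe they were 22 of 81 and with Ank 23 of 188. The ratio over rule nuclei is therefore not one within neurons.

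**Figure D5:**
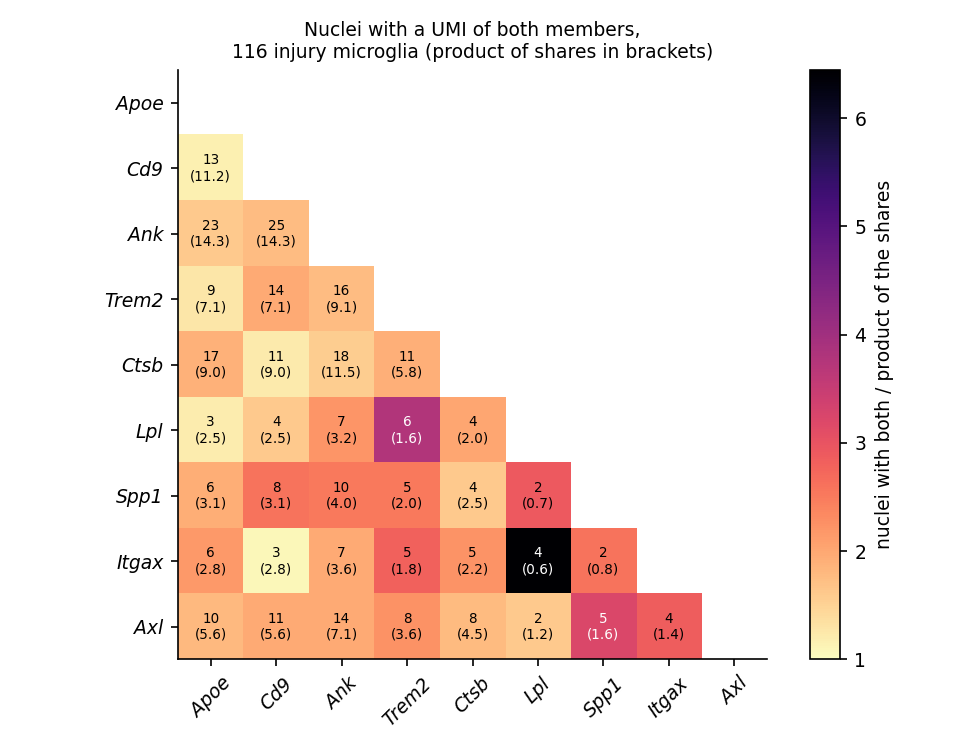
Injury microglia (116 nuclei) with a UMI of both members of each pair. Each cell prints the number of nuclei with the product of the shares in brackets, and its color is the first over the second. The ratio is above 1 in all 36 cells, highest for Lpl with Itgax and lowest for Cd9 with Itgax and Apoe with Cd9.

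The nuclei with many members were compared with the rest on genes that did not define them. Among injury microglia without called doublets, 29 had 3 or more members and 81 had fewer, a limit set after the data were seen. Their medians were 1737 and 1105 UMIs. The list of 15 other disease-associated genes had 5280 CPM (4670 to 5947) in the first and 1835 CPM (1573 to 2126) in the second. Cathepsin and lysosome genes had 4442 CPM (3884 to 5058) against 3179 (2832 to 3557), and TAM receptor genes and their ligands 3507 (3013 to 4058) against 2481 (2176 to 2817). Genes of lipid handling had 1909 CPM (1550 to 2327) against 1272 (1056 to 1518). Genes of TREM2 signalling (1481 against 1668 CPM), tetraspanins (292 against 459) and integrins with osteopontin receptors (1754 against 1835) were at lower values in the nuclei with 3 or more members, with overlapping intervals. Homeostatic genes outside the rule had 6352 CPM (5681 to 7080) against 7338 (6806 to 7901), and the rule genes 4676 (4103 to 5307) against 5576 (5114 to 6070). Neuron markers were at 1227 (943 to 1570) and 1584 CPM (1342 to 1857).

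By single genes, 13 of the 15 other disease-associated genes were at a higher CPM in the nuclei with 3 or more members, 6 of them with an interval above 0, and so were 8 of the 12 lysosome genes, 3 of them with such an interval. Of the 11 homeostatic genes 8 were at a lower CPM, 4 of them with an interval below 0. The share of all genes that differ in this split was not taken, so these counts have no reference. Single genes of the TREM2 signalling, lipid handling, tetraspanin and integrin lists were not counted this way. Csf1, the ligand of Csf1r, had 565 against 83.4 CPM, a log2 difference of 2.76 (1.60 to 4.10), and the growth factor Igf1 604 against 240 CPM, at 1.33 (0.51 to 2.18). Hif1a, the oxygen-sensing transcription factor, was at 1.80 (0.81 to 2.85), the adhesion molecule Cadm1 at 1.46 (1.04 to 1.89) and the ferritin chain Fth1 at 1.11 (0.30 to 1.93). Gpnmb, a transmembrane glycoprotein of lipid-laden macrophages, had 18 UMIs in the 29 nuclei and 0 in the 81. Mertk, the TAM receptor of resting microglia, had 3098 against 2095 CPM, at 0.56 (0.26 to 0.87). In the other direction were Siglech, at 312 against 938 CPM (-1.59, -2.46 to -0.81), the transcription factor Sall1 at -1.50 (-2.91 to -0.32), the receptor Gpr34 at -1.47 (-3.02 to -0.18) and Selplg at -0.89 (-1.83 to -0.04). Fcrls, at 0.33, and P2ry13, at 0.32, were on the higher side of the homeostatic list, and the cathepsins Ctss, at -0.52, and Ctsl, at -1.68, on the lower side of the lysosome list, all with intervals that include 0. Mef2c, at -0.09 (-0.48 to 0.29), and Tgfbr1, at 0.29 (-0.01 to 0.58), had intervals that include 0.

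Other genes of the pathway were described in microglia from lists of 73 genes, of which 38 had at least 20 UMIs over both libraries. Of these 38, 9 were at least 2-fold higher and 5 at least 2-fold lower in the injury library, where 13.7% of all genes were that much higher and 163 of 2260 (7.21%) that much lower. Of the 9, 4 were in the cathepsin and lysosome list, which had 8 measured genes, and 4 among other disease-associated genes, which had 6. Over all rule nuclei 15 of 67 were at least 2-fold higher, beside 774 of 17864 genes (4.33%) in that set. Without called doublets 4 of 33 were, beside 12.8% of all genes, and none of these 4 (Grb2, Itgam, Itgav and Cadm1) was among the 9. Scaling with TMM factors adds 0.38 to every log2 ratio between the microglia of the 2 libraries, and median-ratio factors add 0.43. With them 11 or 12 of the 38 were at least 2-fold higher and 2 lower, with Fcrls and Cadm1 among the higher, and small negative ratios, such as those of Mertk, Lrp1, Ctss, Mef2c and Tgfbr1, turn positive.

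In the TREM2 pathway none of 5 measured genes was 2-fold higher. Plcg2, the phospholipase downstream of TREM2, had 16 and 50 UMIs, 538 and 304 CPM, a log2 ratio of -0.82 (-1.66 to 0.09). Pik3r1, a regulatory subunit of PI3 kinase, had 841 and 329 CPM (25 and 54 UMIs), at -1.36 (-2.06 to -0.61). Grb2, an adaptor, had 269 and 402 CPM (8 and 66 UMIs), at 0.58 (-0.48 to 1.85). Without called doublets Grb2 was at 2.33 (-0.20 to 7.66) on 1 sham UMI and Plcg2 at 0.27 (-1.37 to 2.60). Tyrobp itself had 2 and 10 UMIs, under the limit of 20.

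Of the TAM family, to which Axl belongs, Mertk had 71 and 370 UMIs, 2388 and 2252 CPM, at -0.09 (-0.46 to 0.30), where Axl had 0 and 21 UMIs. The ligand Pros1 had 235 and 341 CPM (7 and 56 UMIs), at 0.53 (-0.60 to 1.91), and the ligand Gas6 had 2 and 7 UMIs. The interval of each of these ratios includes 0.

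Beside Apoe and Lpl stood 4 measured genes of lipid handling. The cholesterol exporter Abca1 had 20 and 99 UMIs, at -0.16 (-0.86 to 0.61). Lrp1, a receptor that takes up apolipoprotein E, had 13 and 62 UMIs, at -0.21 (-1.09 to 0.77), and Soat1, which stores cholesterol as esters, 3 and 22 UMIs, at 0.41 (-1.33 to 2.79). Abcg1, another exporter, was past 2-fold at 1.93, but on 1 sham UMI and with an interval of -0.71 to 7.30.

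In the lysosome list the genes at least 2-fold higher were Ctsd, Ctsz, Hexa and Gusb, proteases and sugar-cleaving enzymes of the lysosome. Ctsd, cathepsin D, had 6 and 76 UMIs, 202 and 463 CPM, at 1.20 (0.01 to 2.69), where Ctsb was at 0.03. Of the 4, only the interval of Ctsd lay above 0. Without called doublets no lysosome gene was 2-fold higher, and Ctsd was at 0.42, with an interval that includes 0, but the shift that TMM factors bring in that set would put it past 2-fold. Ctss, cathepsin S, had 538 and 426 CPM (16 and 70 UMIs), at -0.34 (-1.14 to 0.55). Gpnmb, named after its values were seen, had 0 and 21 UMIs, with an interval of the log2 ratio that begins at -0.09.

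Of the tetraspanins related to Cd9, 2 had enough UMIs. Cd37 had 6 and 31 UMIs, at -0.10 (-1.38 to 1.46), and Cd81 had 7 and 16 UMIs, at -1.27 (-2.63 to 0.25), where Cd9 was at 3.68. Without called doublets Cd81 had 0 and 14 UMIs, so all its sham UMIs lay in called doublets. Of the integrins and osteopontin receptors none of 3 was 2-fold different. Itgb5 had 30 and 156 UMIs, at -0.09 (-0.66 to 0.53), Itgam, the CD11b chain related to Itgax, 7 and 57 UMIs, at 0.56 (-0.58 to 1.94), and Itgav 5 and 34 UMIs, at 0.30 (-1.06 to 2.01). Without called doublets Itgam was at 2.14 (-0.40 to 7.47) and Itgav at 1.33 (-1.25 to 6.68), each on 1 sham UMI.

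Among other genes of the disease-associated program, Igf1 had 0 UMIs in sham and 58 in injury microglia, 353 CPM, with an exact interval of the log2 ratio that begins at 1.46. Csf1, named after its values were seen, had 0 and 39 UMIs, with an interval that begins at 0.87. Without called doublets the intervals began at 0.16 for Igf1 and -0.41 for Csf1. Cadm1 had 673 and 1260 CPM (20 and 207 UMIs), at 0.91 (0.24 to 1.65), and Fth1 303 and 438 CPM (9 and 72 UMIs), at 0.53 (-0.47 to 1.72). Hif1a and Timp2 were past 2-fold at 1.31 (-0.34 to 3.64) and 1.78 (-0.87 to 7.16), on 3 and 1 sham UMIs.

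Homeostatic genes outside the rule had 270 and 1069 UMIs in all, 9082 and 6505 CPM. Of the 8 with enough UMIs none was 2-fold higher in the injury library and 3 were at least 2-fold lower. These were Gpr34, at -2.13 (-2.85 to -1.39), Selplg, a selectin ligand, at -1.04 (-1.73 to -0.32), and Tmem119, at -1.47 on 7 and 14 UMIs. Siglech, a sialic acid receptor of surveying microglia, had 35 and 109 UMIs, at -0.83 (-1.39 to -0.23). Mef2c was at -0.12 (-0.55 to 0.34) and Tgfbr1 at -0.33 (-0.66 to 0.005). With TMM factors Gpr34 and Tmem119 were still past 2-fold, Selplg was not, and Fcrls was 2-fold higher. Without called doublets 1 of 7 was 2-fold lower, Gpr34 at -2.16 (-3.10 to -1.12).

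The genes whose level over the 6 classes and both libraries was most like the mean of the members were Cdkal1, Magi1, Akap10, Arid1b and Med13l. Over 12 points, with log2(CPM + 1), their Pearson correlations with the mean of the members were 0.95, 0.94, 0.93, 0.92 and 0.92, among 577 genes with at least 50 UMIs in injury microglia. The points share 2 libraries and the microglial points the fewest UMIs, so the values only describe likeness. Cdkal1, a tRNA-modifying enzyme, had 7 and 66 UMIs in sham and injury microglia, and Magi1, a scaffold of cell junctions, 21 and 193. Among the members themselves Itgax was nearest to the mean, at 0.89, and Ctsb farthest, at 0.70.

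Injury and sham were also compared outside microglia, a contrast that did not choose the members. Over the 5 classes and the members with at least 20 UMIs in a class, 4 values were past 2-fold, all higher in the injury library. In glutamatergic neurons these were Spp1, with 46 and 131 UMIs, 0.476 and 1.27 CPM, at 1.42 (0.92 to 1.93), and Trem2, with 7 and 22 UMIs, 0.072 and 0.213 CPM, at 1.56 (0.28 to 3.03). This was 2 of 8 members, where 530 of 21514 genes (2.46%) were past 2-fold in either direction. In injury microglia the same genes had 122 and 195 CPM, and Trem2 was in 22 of 11527 glutamatergic nuclei (0.191%).

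In astrocytes 2 of 5 members were past 2-fold, where 805 of 9372 genes (8.59%) were. Ank had 67 UMIs in sham and 463 in injury astrocytes, 148 and 324 CPM, at 1.14 (0.76 to 1.53), and Cd9 had 6 and 41 UMIs, 13.2 and 28.7 CPM, at 1.12 (-0.13 to 2.65). Apoe was lower, with 740.4 CPM (663 to 824) in sham and 484 CPM (449 to 521) in injury astrocytes, at -0.61 (-0.80 to -0.42). Axl had 37.5 and 62.3 CPM (17 and 89 UMIs), at 0.73 (-0.03 to 1.58). Astrocyte medians were 1892 sham and 2539 injury UMIs.

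In oligodendrocytes none of 4 members was past 2-fold, where 525 of 12058 genes (4.35%) were. Apoe had 140 and 179 CPM, at 0.36 (0.15 to 0.57), and Ank 381 and 412 CPM, at 0.11 (-0.02 to 0.24). Spp1, with 0 and 13 UMIs, was under the limit of 20. In oligodendrocyte precursors none of 3 was past 2-fold, where 397 of 6239 genes (6.36%) were, and Lpl, also under the limit, had 8 sham UMIs and 0 injury UMIs.

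In GABAergic neurons none of 5 members was past 2-fold, where 560 of 17483 genes (3.2%) were. Spp1 had 28 and 78 UMIs, 2.12 and 3.75 CPM, at 0.82 with a lower bound of 0.18, and Apoe 28.95 and 43.2 CPM, at 0.58 (0.40 to 0.75). Apoe in glutamatergic neurons was at 22.7 and 33.2 CPM, at 0.55 (0.47 to 0.63). How much of the RNA of Apoe, Spp1 and Trem2 in neuron nuclei was free RNA was not tested. Ank was at 0.24 in glutamatergic and 0.04 in GABAergic neurons, and Ctsb at 0.02 and -0.22.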

How the data were processed

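Nuclei were sorted and sequenced as droplet 3′ libraries, 1 per group. The authors deposited UMI counts per gene and nucleus, made with bcl2fastq and Cell Ranger 6.0.2 on GRCm38 (mm10), without normalization. The counting of introns and strand and the annotation release are not given in the sources used here. As in the study's methods, nuclei with over 2% mitochondrial UMIs, under 200 genes or over 7500 genes were removed. Doublets were called with Scrublet (scanpy 1.11.5) at 0.8% per 1000 nuclei, 2179 sham and 3871 injury nuclei, and were kept in the main sums. Nuclei were clustered with Seurat 5.3.0 (anchors between libraries, 30 components, resolution 0.5) on variable genes without the members or list genes, and clusters were named from marker lists.

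UMIs were summed per class and library and divided by the class total (CPM). Genes with at least 20 UMIs over both libraries were counted as past the fold at a log2 ratio of 1. A library at 0 was set to 3 UMIs for a bound. With 1 library per group no test was run, and the intervals do not cover differences between mice, between dissections or between nuclei of a set. edgeR 4.0.16 (TMM) and DESeq2 1.42.0 (median of ratios) served only as other scalings. The functions for ratios and intervals were tested on simulated counts, while clustering, doublet calling, thinning and co-detection were not. The members, lists and thresholds were chosen with earlier results of these data known, and the set without neuron-rich nuclei, the set by Csf1r and Inpp5d, the use of the microglia-like cluster beside the rule and the split at 3 members were chosen after seeing the data. Named list genes are the 3 of each list with the most UMIs over both libraries in microglia (1 gene that this rule names is not reported here), and the genes most like the members the 5 with the highest correlation. Other list genes past 2-fold, Tyrobp, and genes of the split by members were named after their values were seen. Promoter windows are RefSeq sequence of GRCm38.p6.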

Additional observations from a re-analysis of the deposited data

Results flagged for a closer look

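Apoe differed in direction between classes. Its log2 ratio of injury over sham was -0.61 in astrocytes, and 4.13 in microglia, 0.55 in glutamatergic neurons, 0.58 in GABAergic neurons and 0.36 in oligodendrocytes. All classes come from the same 2 libraries, 1 per group, so each ratio is a single pair and the difference between classes was not tested.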

How the results depend on the processing

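No paired analysis was possible because only 1 library stands for the sham and 1 for the injury mice, and for the same reason no library could be left out. The count of members at least 2-fold higher in the injury library was 5 over all rule nuclei (4 with the limit of 20 UMIs, which leaves out Itgax), 3 in those of the microglia-like cluster and 3 in the whole cluster. Without called doublets the count in microglia was 4, with Trem2 at 1.14. The TMM shift of 0.38 in microglia would also put Trem2 past 2-fold. Over all rule nuclei 3 members were highest in the injury library against the other classes, 9 in the rule nuclei of the microglia-like cluster, 9 in the whole cluster and 5 by the mean CPM of single nuclei. By shares of thinned injury nuclei, Apoe was higher in astrocytes and Ank in oligodendrocytes than in microglia. Of the other genes of the pathway, 15 of 67 were at least 2-fold higher over all rule nuclei, beside 4.33% of all genes. In those of the microglia-like cluster 9 of 38 were, beside 13.7%, and without called doublets 4 of 33, beside 12.8%. No member past 2-fold turned its direction between these sets, and Ctsb, at 0.03 in microglia, was at -0.78 without called doublets. Other genes of the pathway did turn between microglia and all rule nuclei, with log2 ratios of -2.13 and 0.29 for Gpr34, -1.04 and 0.62 for Selplg, -1.36 and 0.14 for Pik3r1, -1.47 and 0.10 for Tmem119, -0.34 and 1.53 for Ctss, -0.09 and 1.93 for Mertk and -0.70 and 1.29 for Vav1, and the cause was not tested. Of the values of single genes, 71 stayed within their counting interval and 26 moved beyond it over all rule nuclei, and in microglia all 111 stayed within it. Those intervals are wide, since sham microglia held 29730 UMIs in 24 nuclei and 3 UMIs there are 101 CPM. For the 4 members at 0 in sham microglia the interval begins under 0 and has no upper bound. Staying within it therefore says little for them. The alternative with the limit of 20 UMIs returned the main value itself, so it always counted as within. Over the alternatives run, the Apoe ratio in microglia lay between 1.88, in nuclei chosen by Csf1r and Inpp5d, and 4.56, with median-ratio factors. Which nuclei rich in neuron RNA join the microglia-like cluster also varied with the numerical library settings of the clustering, which were kept fixed here, and under another setting the Apoe ratio was smaller. Subtraction of free RNA was not run for all rule nuclei, and the other classes were not run without the filter on nuclei.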
